A study of Mus musculus with 32 samples.

Results

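The genes described here are the DEAD box and DEAH box RNA helicases as named by symbol. They are every protein-coding mouse gene whose symbol is Ddx or Dhx followed by a number. This gave 53 of the 55385 genes in the count files, or 53 of 21897 protein-coding genes. These 53 members comprised 37 Ddx and 16 Dhx genes and were picked by a rule on the symbol that uses no measured value. The rule leaves out DEAD box helicases with other symbols, such as Eif4a3, and takes in Ddx11, a DNA helicase. Levels of the members were measured by total RNA-seq of whole mouse embryos from the zygote to the late 2-cell stage, in 16 libraries that form 8 groups of 2 libraries each.

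All embryos were wild type and were made by in vitro fertilization of B6D2F1/J oocytes with B6D2F1/J sperm from mice of 6 to 8 weeks. Embryos of 3 stages (zygote, early 2-cell, late 2-cell) had been cultured with the CBP/p300 inhibitor A-485 at 10 µM or with the solvent DMSO. The A-485 window ran from 4 to 20 hours post fertilization (hpi). The paper places early 2-cell embryos at 20 hpi, so zygotes would have been taken within this window, after a shorter exposure. A further pair of late 2-cell groups had been cultured with the histone deacetylase inhibitor TSA (trichostatin A) at 50 nM from 8 to 28 hpi or with DMSO, so that the late 2-cell stage has a DMSO set for each inhibitor. A-485 had been washed out at 20 hpi, before the late 2-cell embryos were taken. The labels give no separate cultures for the 2 libraries of a group, so the p-values below measure the spread between libraries, which may be technical. Pooled ATAC-seq peak lists, 4 in number (DMSO and A-485, each at the late 1-cell and at the early 2-cell stage), were used for the start sites of the same genes.

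RNA helicases of this family use ATP to separate short RNA duplexes or to strip proteins from RNA, and each works at a particular step of RNA metabolism: many in the nucleolus on the precursors of ribosomal RNA, others in the spliceosome, in mRNA export, in translation and decay, in germ cell RNA granules, or as sensors of viral RNA. The egg carries a store of maternal mRNA and unfinished ribosomes, and the embryo begins its own transcription weakly in the zygote and strongly at the 2-cell stage (zygotic genome activation, ZGA). A-485 blocks the acetyltransferases CBP and p300 that acetylate histone H3 at lysine 27, and TSA blocks the removal of acetyl groups.

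The libraries held between 13206163 and 32585987 expected counts, the lowest totals being those of the late 2-cell A-485 embryos. The 8 genes of an oocyte and early embryo list all reached 1 FPKM in every group, and genes of a 2-cell list (Zscan4 and its companions) summed to 376 to 439 FPKM in early 2-cell DMSO embryos against 10.0 to 10.1 in DMSO zygotes. Mitochondrially encoded genes took 19.5% to 20.7% of counts in late 2-cell A-485 libraries against 10.5% to 12.3% in their DMSO set, and 15.5% to 16.3% with TSA against 12% to 12.5%. In the same late 2-cell A-485 libraries the oocyte list summed to 648 to 657 FPKM against 309 to 355 with DMSO, and the 2-cell list to 59.8 to 61.9 against 242 to 255, while with TSA the 2-cell list reached 356 to 431 FPKM against 153 to 182. A fibroblast list of 6 genes, with 3 at 0 in both groups, summed to 14.2 to 16.4 FPKM with A-485 and 0.13 to 0.64 in its DMSO set. An erythroid list of 6 genes, with 3 at 0 with TSA and 4 at 0 in its DMSO set, summed to 44.6 to 46.8 FPKM with TSA and 0.78 to 1.36 in its DMSO set. The summed cumulus cell markers, of which 1 of 8 genes reached 1 FPKM in either DMSO set, ranged from 7.85 to 14.1 FPKM in the DMSO sets and from 4.25 to 5.06 in the treated late 2-cell libraries. Sperm markers never summed above 18.9 FPKM. The part of these differences in the results below was not tested. In whole-embryo RNA, other cells carried along and RNA of the embryo's own cells cannot be told apart.

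The upstream sequence of 4 members is given first, because the results return to them. Ddx54 and Ddx27, both factors of large ribosomal subunit processing or assembly, had the lowest log2 fold changes with A-485 at the late 2-cell stage, while Ddx27, Ddx51 and Ddx43 were the members whose start site had an ATAC peak in early 2-cell DMSO embryos and in no other list. Each line holds the 250 bases before the RefSeq start of the gene on the plus strand of GRCm38.p6, with GC boxes (GGGCGG or its reverse complement CCGCCC) in capitals. The windows are chr5:120612880-120613129 for Ddx54, chr2:167015063-167015312 for Ddx27, chr5:110653201-110653450 for Ddx51 and chr9:78395527-78395776 for Ddx43. In GENCODE M21, the annotation of the counts and ATAC start sites, Ddx54 begins at chr5:120612739, ahead of its window. Ddx27 begins there at chr2:167015193, inside its window. By that annotation the printed bases of Ddx54 and the later ones of Ddx27 lie within the gene.
Ddx54: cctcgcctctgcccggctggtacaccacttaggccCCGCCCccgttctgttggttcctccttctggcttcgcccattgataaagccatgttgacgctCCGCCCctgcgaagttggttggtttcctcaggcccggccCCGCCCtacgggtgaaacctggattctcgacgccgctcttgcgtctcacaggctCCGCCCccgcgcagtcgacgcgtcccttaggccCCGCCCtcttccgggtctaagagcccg
Ddx27: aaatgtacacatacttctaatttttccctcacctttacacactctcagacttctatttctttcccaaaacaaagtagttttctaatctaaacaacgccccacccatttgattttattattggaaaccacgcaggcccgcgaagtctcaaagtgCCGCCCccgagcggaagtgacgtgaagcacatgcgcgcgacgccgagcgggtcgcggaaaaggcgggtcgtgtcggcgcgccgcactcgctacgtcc
Ddx51: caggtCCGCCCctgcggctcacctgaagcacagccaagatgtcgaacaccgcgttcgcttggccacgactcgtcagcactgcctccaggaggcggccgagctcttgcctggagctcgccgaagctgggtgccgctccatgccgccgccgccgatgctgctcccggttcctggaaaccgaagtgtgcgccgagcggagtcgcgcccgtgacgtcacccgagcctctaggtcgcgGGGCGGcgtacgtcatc
Ddx43: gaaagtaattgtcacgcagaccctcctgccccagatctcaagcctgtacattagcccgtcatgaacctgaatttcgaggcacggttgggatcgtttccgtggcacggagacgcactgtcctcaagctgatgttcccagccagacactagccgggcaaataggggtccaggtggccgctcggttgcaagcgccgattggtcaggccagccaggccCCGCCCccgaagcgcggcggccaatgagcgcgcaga
They held 5, 1, 2 and 1 GC boxes, respectively. Over the window from 250 bases before to 50 after the start, 33 of 47 members with a RefSeq entry held a GC box on either strand (70.2%), against 38.2% of 27025 genes. These 27025 were not restricted to protein-coding genes, unlike the members, and a gene counted if any listed start held the motif. A CCAAT box (CCAAT) was found in 48.9% of members and 41.1% of genes, a TATA box (TATAAA) in 12.8% and 15.7%, an E-box (CACGTG) in 14.9% and 8.09%, and the nuclear receptor half-site AGGTCA in 14.9% and 18.1%. Ddx11, Ddx23, Ddx39, Ddx6, Dhx38 and Dhx58 had no entry in the table of start sites.

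The 53 members were grouped by role into 16 genes of ribosome biogenesis, 12 of splicing, 10 of mRNA export, translation and decay, 4 of the germline and small RNAs, 3 of RNA sensing, 2 of mitochondria, 1 of tRNA ligation and 5 others. Roles were assigned from textbook knowledge, with a single role per gene, although some of these genes act at several steps. Per length, Ddx3x, an X-linked helicase of translation initiation, was the most abundant member, with a mean of 411 FPKM over the 16 libraries and a range of 313 to 537 FPKM. Next came Ddx19a, which acts at the nuclear pore in mRNA export, with 173 FPKM, and the splicing factor Ddx5 (p68) with 161 FPKM, followed by Dhx32, Ddx24, Ddx39, Ddx46, Dhx9, Ddx18 and Dhx30 between 38.8 and 79.3 FPKM. The range within a gene was wide for several of these: 4.88 to 141 FPKM for Dhx9, which unwinds double-stranded RNA in the nucleus, and 6.03 to 160 FPKM for Ddx39, an export factor. By contrast Dhx32 stayed between 57.7 and 109 FPKM and Ddx46, the U2 helicase Prp5, between 34.1 and 85.5 FPKM. Summed over all members, the level was 1767 to 1888 FPKM in DMSO zygotes, 1475 to 1496 in early 2-cell DMSO embryos and 2177 to 2239 over the 4 late 2-cell DMSO libraries, but 1094 to 1107 with A-485 and 1289 to 1306 with TSA at the late 2-cell stage.

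**Figure D1:**
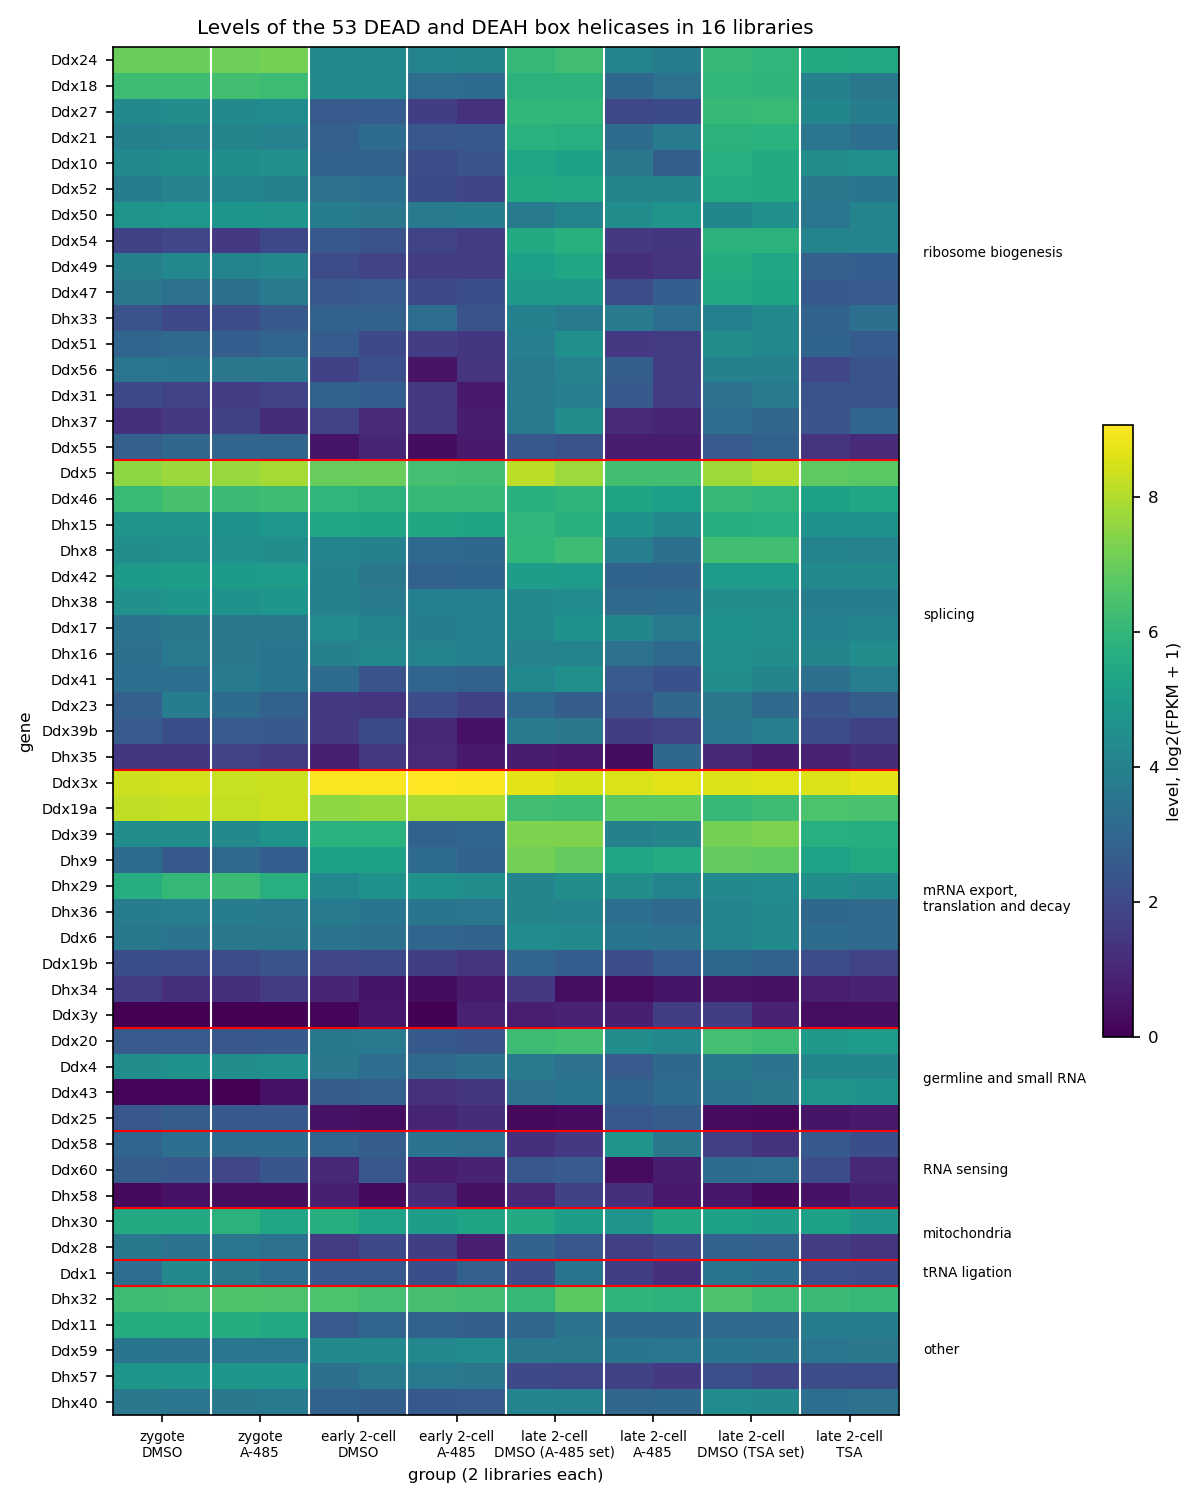
Level of each helicase, as log2(FPKM + 1), in each of the 16 libraries (columns, 2 per group) with the genes (rows) ordered by role and, within a role, by mean level. Most of the ribosome biogenesis block is darker in early 2-cell embryos, brighter in both late 2-cell DMSO sets and darker again with A-485 or TSA, while Ddx3x stays brightest throughout.

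To follow the normal course of the family, the DMSO groups of successive stages were compared. The labels do not say which libraries were prepared together, so stage and preparation cannot be told apart. A gene was called changed when its adjusted p (edgeR quasi-likelihood test, all genes) was under 0.05, its change at least 2-fold and its mean at least 1 FPKM in either group, and fold changes below are log2 values of counts ± SE. From the zygote to the early 2-cell stage, 19 of 53 members fell (background 14.9% of all genes tested) and 4 rose (background 11.2%), and the median log2 fold change of the members was -0.75 against 0.08 for all genes. Backgrounds here and below include genes under 1 FPKM, which cannot be called. Of genes with a mean of at least 1 FPKM in either group, 22.5% fell and 16.9% rose, with a median of -0.12. The members that fell included 9 of the 16 genes of ribosome biogenesis, with a median of -1.24 for the group. This stage difference depended on the scaling. With libraries scaled to mitochondrially encoded counts, which shifted the median of all genes by -1.27, 39 members fell and 2 rose. The share of higher genes among all genes called went from 42.9% to 13.9%.

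The member that fell furthest was Ddx25, a helicase of mRNA storage in spermatids, with 4.48 and 5.39 FPKM in the zygote libraries and 0.35 and 0.26 in the early 2-cell libraries (-3.91 ± 0.236, adjusted p = 1.89e-08). Ddx24, of large subunit assembly, went from 128 and 126 FPKM to 17.6 and 19.4 (-2.80 ± 0.108, adjusted p = 3.42e-10). Neither gene overlapped between the stages. Ddx11, a DNA helicase of sister chromatid cohesion, went from 47.5 and 47.7 to 5.03 and 6.82 FPKM, a log2 fold change of -2.90. The other members with the largest falls were Ddx55 (-3.47), Ddx56 (-2.07), Ddx49 (-2.01), Ddx18 (-1.99), Ddx27 (-1.84) and Ddx10 (-1.67), all of ribosome biogenesis, and Ddx28 (-2.03), of the mitochondrial ribosome. A further 9 members fell by smaller amounts.

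The helicases that rose at the early 2-cell stage were grouped under the germline and small RNAs (Ddx43, Ddx20) or under mRNA export, translation and decay (Dhx9, Ddx39). Ddx43, a germline helicase also known as HAGE, had 8 and 6 counts (0.13 and 0.10 FPKM) in the zygote and 235 and 262 counts (5.44 and 5.94 FPKM) in the early 2-cell libraries (5.66 ± 0.374, adjusted p = 4.43e-08). Dhx9 went from 8.33 and 4.88 to 35.2 and 35.1 FPKM (2.77 ± 0.165, adjusted p = 1.71e-08). All early 2-cell libraries lay above all zygote libraries for both genes, and both calls held under mitochondrial scaling. Ddx39 rose from 21 and 21.1 to 54.8 and 53.9 FPKM (1.54 ± 0.113) and Ddx20, Gemin3 of the SMN complex that assembles spliceosomal particles, from 5.03 and 5.07 to 11.7 and 12.1 FPKM (1.32 ± 0.16). These last calls were lost under mitochondrial scaling, with log2 values of 0.27 for Ddx39 and 0.05 for Ddx20. Ddx3x was 0.73 ± 0.061 higher on the log2 scale (adjusted p = 4.19e-07), short of the 2-fold limit. Its Y-linked homologue Ddx3y had 0 and 0 counts in the DMSO zygotes and 1 and 0 in the A-485 zygotes, and 6 and 22 counts in the early 2-cell DMSO libraries, without reaching 1 FPKM.

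Between the early and the late 2-cell stage the direction turned. Of 53 members 28 rose (background 19.3%) and 3 fell (background 10.3%), and the median log2 fold change was 1.25 for the members and 0.03 for all genes. Of genes with at least 1 FPKM, 29.2% rose and 15.5% fell, with a median of 0.09. The ribosome biogenesis helicases made up 15 of the 28: all but Ddx50 were called, the group median was 2.81 and none of the 16 was below 0. Of the splicing helicases 5 of 12 rose as well, and of those of export, translation and decay 4 of 10.

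Ddx54 had 4.74 and 4.00 FPKM in early 2-cell DMSO embryos and 56.2 and 55.5 in the late 2-cell DMSO libraries of the TSA set (3.75 ± 0.117, adjusted p = 3.53e-09). Ddx27 went from 5.15 and 5.22 to 67.3 and 68.1 FPKM (3.63 ± 0.112, adjusted p = 3.49e-09). For both, every late library was more than 10 times above every early one, and the zygote level of Ddx27 (19.4 and 20.8 FPKM) lay between, so that its course fell and then rose. Ddx21, a nucleolar helicase of ribosomal RNA synthesis and processing, followed the same order with 14.8 and 15.3 FPKM in zygotes, 5.85 and 8.05 in early and 55.6 and 55.1 in late 2-cell embryos (late against early 3.03 ± 0.131). The remaining large rises were those of Ddx49 (3.51), Ddx55 (3.41), Dhx37 (3.24 in counts and 2.05 as the log2 ratio of FPKM), which releases the U3 RNA from the small subunit precursor, Ddx47 (3.21), Ddx10 (3.01), Ddx3y (2.95) and Ddx20 (2.75). The call of Ddx3y, at 2.21 and 0.87 FPKM in the late libraries, was lost without the first of them (2.30, adjusted p = 0.051), and with the DMSO libraries of the A-485 set, at 0.70 and 0.89 FPKM, it missed the level limit.

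Among the splicing helicases, Dhx8 (Prp22), which releases the spliced mRNA, rose from 16.2 and 14.8 to 78.7 and 80.0 FPKM (2.37 ± 0.088, adjusted p = 6.93e-09). Ddx39b (UAP56), of spliceosome assembly and export, rose from 1.91 and 3.10 to 10.8 and 13.6 FPKM (2.43 ± 0.258). Dhx9 rose further, to 119 and 116 FPKM (2.05 ± 0.14), and Ddx39 to 145 and 157 FPKM (1.54 ± 0.09). Dhx9 thus rose at the early and again at the late 2-cell stage, whereas for Ddx39 and Ddx20 the first rise depended on the scaling.

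The 3 members that fell were Ddx58, Dhx57 and Ddx19a. Ddx58, the viral RNA sensor RIG-I, had 6.74 and 5.44 FPKM in the early and 2.30 and 1.49 in the late libraries (-1.85 ± 0.225, adjusted p = 4.09e-05). Ddx19a declined from 297 and 310 FPKM in the zygote to 184 and 200 in the early and 64.9 and 76.2 in the late 2-cell embryo (late against early -1.54 ± 0.076, adjusted p = 4.02e-08). Dhx57 went from 26.7 and 27 to 9.28 and 12.3 and then 3.65 and 2.80 FPKM (late against early -1.78 ± 0.174). For Ddx19a and Dhx57 no library of a stage overlapped with the preceding stage. Ddx4 (Vasa), the germ cell helicase of the piRNA pathway, was lower at the early 2-cell stage than in the zygote (-1.06 ± 0.155, but -0.85 without the second early 2-cell library and -0.96 without the second zygote library) and was not called afterwards (0.16 ± 0.173, adjusted p = 0.477).

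**Figure D2:**
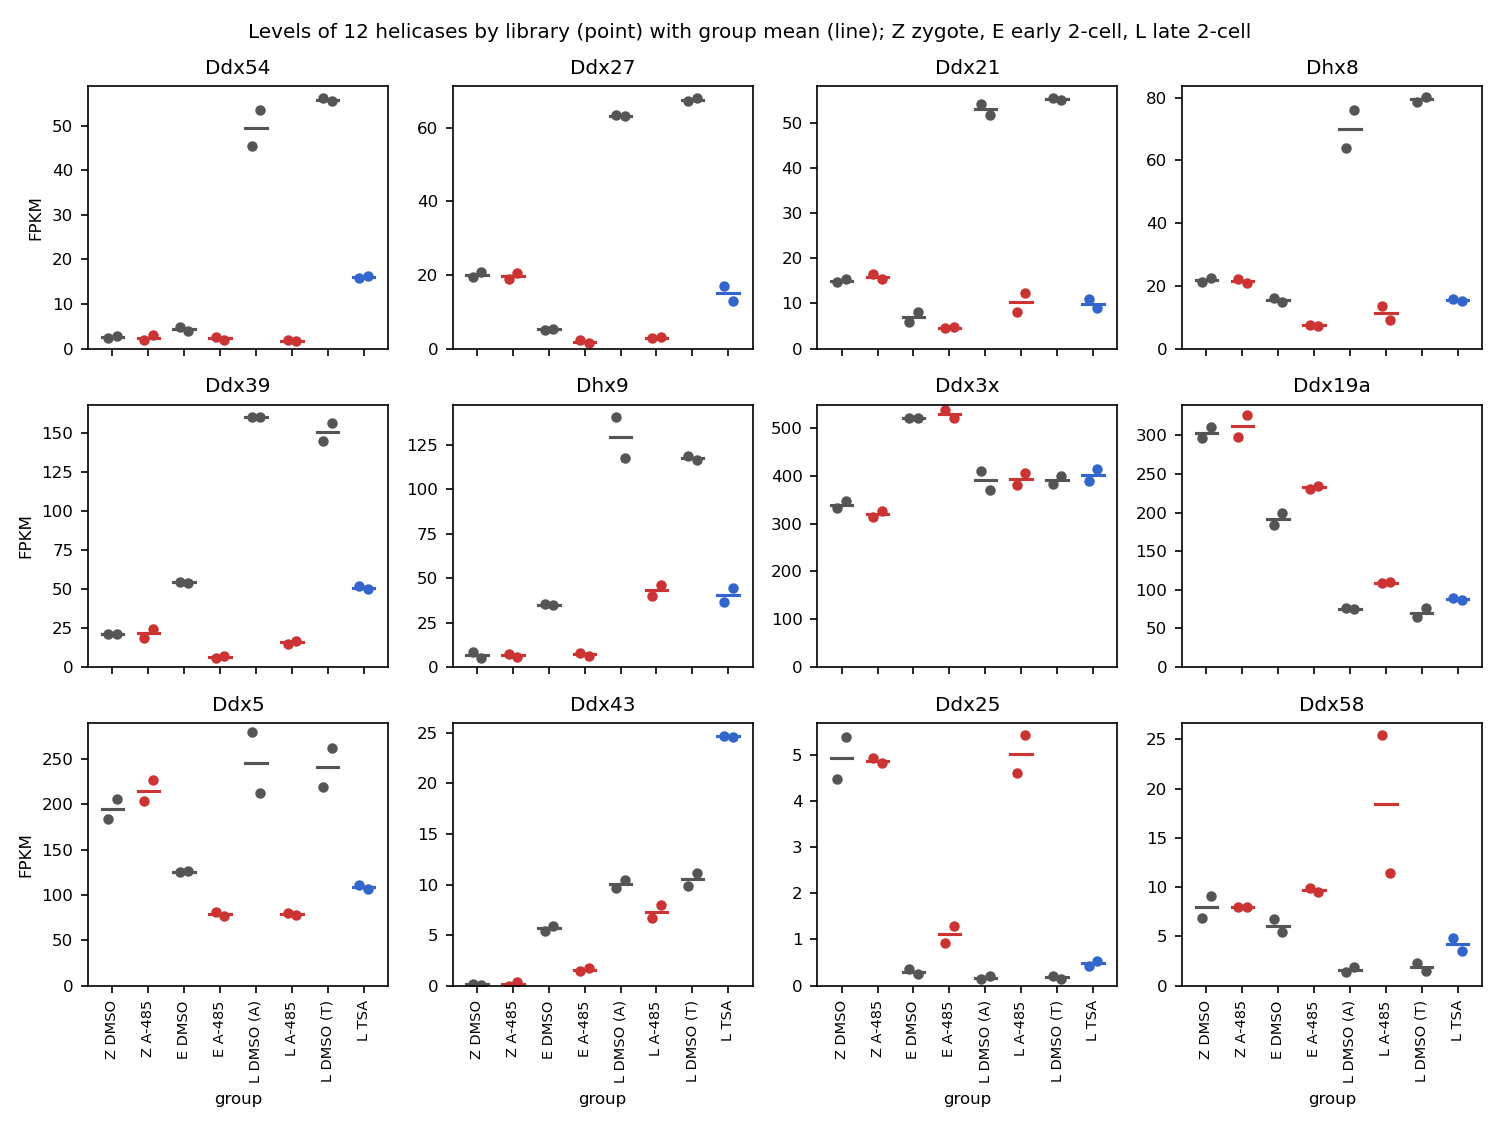
FPKM of 12 helicases in each library (points) with the mean of the 2 libraries of a group (lines) on linear axes from 0; grey marks DMSO, red A-485 and blue TSA. Ddx54, Ddx27, Ddx21 and Dhx8 are highest in both late 2-cell DMSO groups, whereas Ddx3x lies between 313 and 537 FPKM everywhere.

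A-485 was first examined in zygotes, whose exposure would have been shorter than that of the 2-cell embryos. None of 52 members tested was called in either direction (edgeR; background 0.00548% higher and 0.0657% lower), 0 reached an unadjusted p under 0.05, and DESeq2 called 0. The median log2 fold change was 0.04, with a range of -0.82 (Dhx58, at 2 to 12 counts per library) to 0.62 (Ddx43, at 0 to 23 counts). Ddx3y did not pass the filter on low counts. Few genes of any kind were called in this comparison (13 of 18258), and an adjusted p that misses the threshold does not show that levels were alike.

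At the early 2-cell stage, A-485 embryos had 12 members lower (background 7.9%) and 1 higher (background 0.402%) than DMSO embryos, with a median of -0.37 for the members and 0.0 for all genes. Of genes with at least 1 FPKM, 12.7% were lower and 0.647% higher, with a median of -0.01. The 2-cell marker list moved with the A-485 difference, at 376 to 439 FPKM with DMSO and 7.93 to 8.98 with A-485, near its level of 10.0 to 10.1 in DMSO zygotes, and its part in the result was not tested. The log2 fold changes of the 12 were -2.77 for Ddx39, -2.46 for Ddx31, -2.30 for Dhx9, -1.87 for Ddx56, -1.83 for Ddx43, -1.59 for Ddx52, -1.52 for Ddx27, -1.50 for Ddx20, -1.21 for Ddx42, -1.12 for Ddx54, -1.10 for Ddx18 and -1.05 for Dhx8. Of these, 6 belong to ribosome biogenesis and 2, Ddx42 (which binds SF3B1 of the U2 particle) and Dhx8, to splicing. Ddx39, Dhx9, Ddx20 and Ddx43, the helicases that rose from the zygote to the early 2-cell stage in DMSO, were all among the 12. Both comparisons share the early 2-cell DMSO libraries, so these are not independent observations.

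Ddx39 had 54.8 and 53.9 FPKM with DMSO and 6.03 and 6.81 with A-485 (-2.77 ± 0.14, adjusted p = 3.73e-08). Dhx9 had 35.2 and 35.1 FPKM with DMSO and 7.91 and 6.26 with A-485 (-2.30 ± 0.164, adjusted p = 9.51e-07), which lies within the range of the DMSO zygotes of 4.88 to 8.33 FPKM. Ddx43 had 5.44 and 5.94 FPKM with DMSO and 1.45 and 1.70 with A-485 (-1.83 ± 0.269, adjusted p = 0.000519). The groups did not overlap for any of these 3, and A-485 levels of Ddx43 were above every zygote library while those of Ddx39 were below them. The one helicase that rose was Ddx25, with 51 and 39 counts (0.35 and 0.26 FPKM) with DMSO and 140 and 207 counts (0.93 and 1.29 FPKM) with A-485 (1.86 ± 0.344, adjusted p = 0.00299).

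Some of the smaller calls rested on 1 library. Without the first early 2-cell DMSO library, Ddx18 (-0.99), Ddx42 (-0.97), Ddx54 (-0.97) and Dhx8 (-0.97) were just under 2-fold, so that 8 of the 12 calls held, and Ddx39b was called lower in addition. Without the second A-485 library Ddx54 and Dhx8 were each at -0.98. Ddx56 lost its call without the second DMSO library (-1.63, adjusted p = 0.139) or without the first A-485 library (-1.46, adjusted p = 0.114). Members with values close to 0 included Ddx3x (0.04 ± 0.056), Dhx15, the Prp43 helicase that takes spliceosomes apart (0.03 ± 0.097), and Dhx36, which unwinds G-quadruplexes (-0.15 ± 0.127). Ddx6, the repressor and decay factor of P-bodies, was 0.54 lower on the log2 scale (-0.54 ± 0.125, adjusted p = 0.0121) and Ddx21 likewise passed the p threshold alone (-0.72 ± 0.193, adjusted p = 0.0289). Ddx1, of the tRNA ligase complex, had 4.72 and 4.66 FPKM with DMSO and 3.49 and 5.93 with A-485 (-0.13 ± 0.27, adjusted p = 0.829).

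At the late 2-cell stage, after A-485 had been removed, 35 of 53 members were lower than in the DMSO set of that experiment (background 16.8%) and 2 were higher (background 10.5%). The median was -1.43 for the members and 0.28 for all genes, and 47 of 53 log2 fold changes were below 0. Scaling to mitochondrially encoded counts shifted the median of all genes by -0.63 and gave 42 members lower and 2 higher, and scaling to total counts shifted it by 0.19 and gave 33 lower and 2 higher. Among all genes called, higher genes made up 38.6%, and 21.4% under mitochondrial scaling.

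The ribosome biogenesis helicases fell in 15 of 16 cases, with a group median of -2.86. Ddx54 had 45.6 and 53.5 FPKM with DMSO and 1.89 and 1.68 with A-485 (-5.11 ± 0.167, adjusted p = 3.98e-09). Ddx27 had 63.5 and 63.3 FPKM with DMSO and 2.87 and 3.08 with A-485 (-4.59 ± 0.179, adjusted p = 7.31e-09). Both genes were left at or below their early 2-cell DMSO level, at 4.00 to 4.74 FPKM for Ddx54 and 5.15 to 5.22 FPKM for Ddx27. Falls of more than 2.9 on the log2 scale were also found for Ddx49 (-4.16), Dhx37 (-3.96), Ddx51 (-3.53), Ddx31 (-3.16), Ddx18 (-3.01) and Ddx56 (-2.91). Ddx21 went from 54.1 and 51.8 to 8.17 and 12.4 FPKM (-2.53 ± 0.186). The exception was Ddx50, the nucleolar paralogue of Ddx21, with 12.1 and 15.9 FPKM with DMSO and 21 and 24.6 with A-485 (0.34 ± 0.206, adjusted p = 0.208).

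Of the splicing helicases 9 of 12 fell, with a median of -1.56. Dhx8 had 63.8 and 76.0 FPKM with DMSO and 13.6 and 9.24 with A-485 (-3.58 ± 0.173, adjusted p = 2.22e-08). The other 8 called lower were Ddx41 (-2.72), Ddx42 (-2.52), Ddx39b (-2.27), Dhx15 (-1.66), Ddx5 (-1.64), Dhx38 (-1.48), Ddx23 (-1.43) and Dhx16 (-1.23). Dhx16 fell by 0.93 on the log2 scale without the first A-485 library. Ddx17 (-0.92 ± 0.18) and Ddx46 (-0.89 ± 0.12) passed the p threshold but were short of 2-fold. Counts for the remaining one, Dhx35, were 47 and 30 with DMSO and 9 and 56 with A-485, and the groups overlapped.

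In the group of export, translation and decay, Ddx39 had 160 and 160 FPKM with DMSO and 14.9 and 16.6 with A-485 (-3.20 ± 0.132, adjusted p = 9.76e-09). Dhx9 had 141 and 117 FPKM with DMSO and 40.1 and 46.3 with A-485 (-1.93 ± 0.121, adjusted p = 1.44e-07). Their A-485 levels differ in one respect: Ddx39 remained below its early 2-cell DMSO level of 53.9 to 54.8 FPKM, and Dhx9 was above its own of 35.1 to 35.2 FPKM. Dhx36 (-1.38 ± 0.202) and Ddx6 (-1.16 ± 0.145) also fell, the latter by 0.97 when scaled to total counts. Ddx3x, at 411 and 370 FPKM with DMSO and 380 and 406 with A-485, was not called (-0.18 ± 0.086, adjusted p = 0.127), and Ddx19a was slightly higher with A-485, at 109 and 110 FPKM against 76.4 and 75.2 (0.36 ± 0.114, adjusted p = 0.0283). Levels of Ddx3x overlapped between the groups and those of Ddx19a did not.

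The members that rose in late 2-cell A-485 embryos were Ddx25 and Ddx58. Ddx25 had 21 and 26 counts (0.14 and 0.20 FPKM) with DMSO and 409 and 544 counts (4.61 and 5.42 FPKM) with A-485 (4.71 ± 0.332, adjusted p = 3.71e-07), against 4.48 and 5.39 FPKM in DMSO zygotes. Ddx58 had 103 and 100 counts with DMSO and 536 and 480 with A-485 (2.72 ± 0.268, adjusted p = 6.64e-06), while its FPKM were 1.35 and 1.87 against 25.5 and 11.5. For Ddx58 the 2 A-485 libraries agreed in counts and differed in FPKM by more than 2-fold. Of the other sensors, Ddx60, an interferon-induced helicase, fell (-2.81 ± 0.50, adjusted p = 0.000831) and Dhx58 (LGP2) had 5 to 28 counts per library and was not called (-0.67 ± 1.066).

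In the group of the germline and small RNAs, Ddx20 fell from 74.1 and 78.7 to 20.7 and 17.6 FPKM (-2.22 ± 0.14). Ddx43 had 9.68 and 10.4 FPKM with DMSO and 6.67 and 7.99 with A-485, without overlap but not called (-0.66 ± 0.255, adjusted p = 0.0627). Ddx4 was lower (-1.03 ± 0.265, adjusted p = 0.00907), a call lost when either the first A-485 library (-0.76) or the first DMSO library (-0.75) was left out, and under DESeq2 (-0.97). In the remaining groups Ddx1 went from 251 and 218 to 36 and 43 counts (-2.17 ± 0.387). Ddx28 fell with a log2 value of -1.27, which was -0.90 and not called without the first DMSO library. Dhx30 of the mitochondrial RNA granule was at -0.76 ± 0.175 and short of 2-fold.

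FPKM depends on the transcript length that RSEM assigned, and this length moved between libraries for a few members. The log2 ratio of mean FPKM and the log2 fold change of counts differed by more than 1 in the late 2-cell A-485 comparison for 5 members: Dhx35, Dhx34, Ddx31, Ddx23 and Ddx56. For Dhx35 the effective length was 2993 and 524 bases in the A-485 libraries and 3083 and 3030 in the DMSO libraries, and for Ddx23 it was 1880 and 871 against 2054 and 3000. Directions for these genes are therefore given from counts. Reads shared with near-identical copies were a small concern, since the posterior SD of the count was 1.01% of it for Ddx19b, a close paralogue of Ddx19a, and at most 0.188% for every other member.

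**Figure D3:**
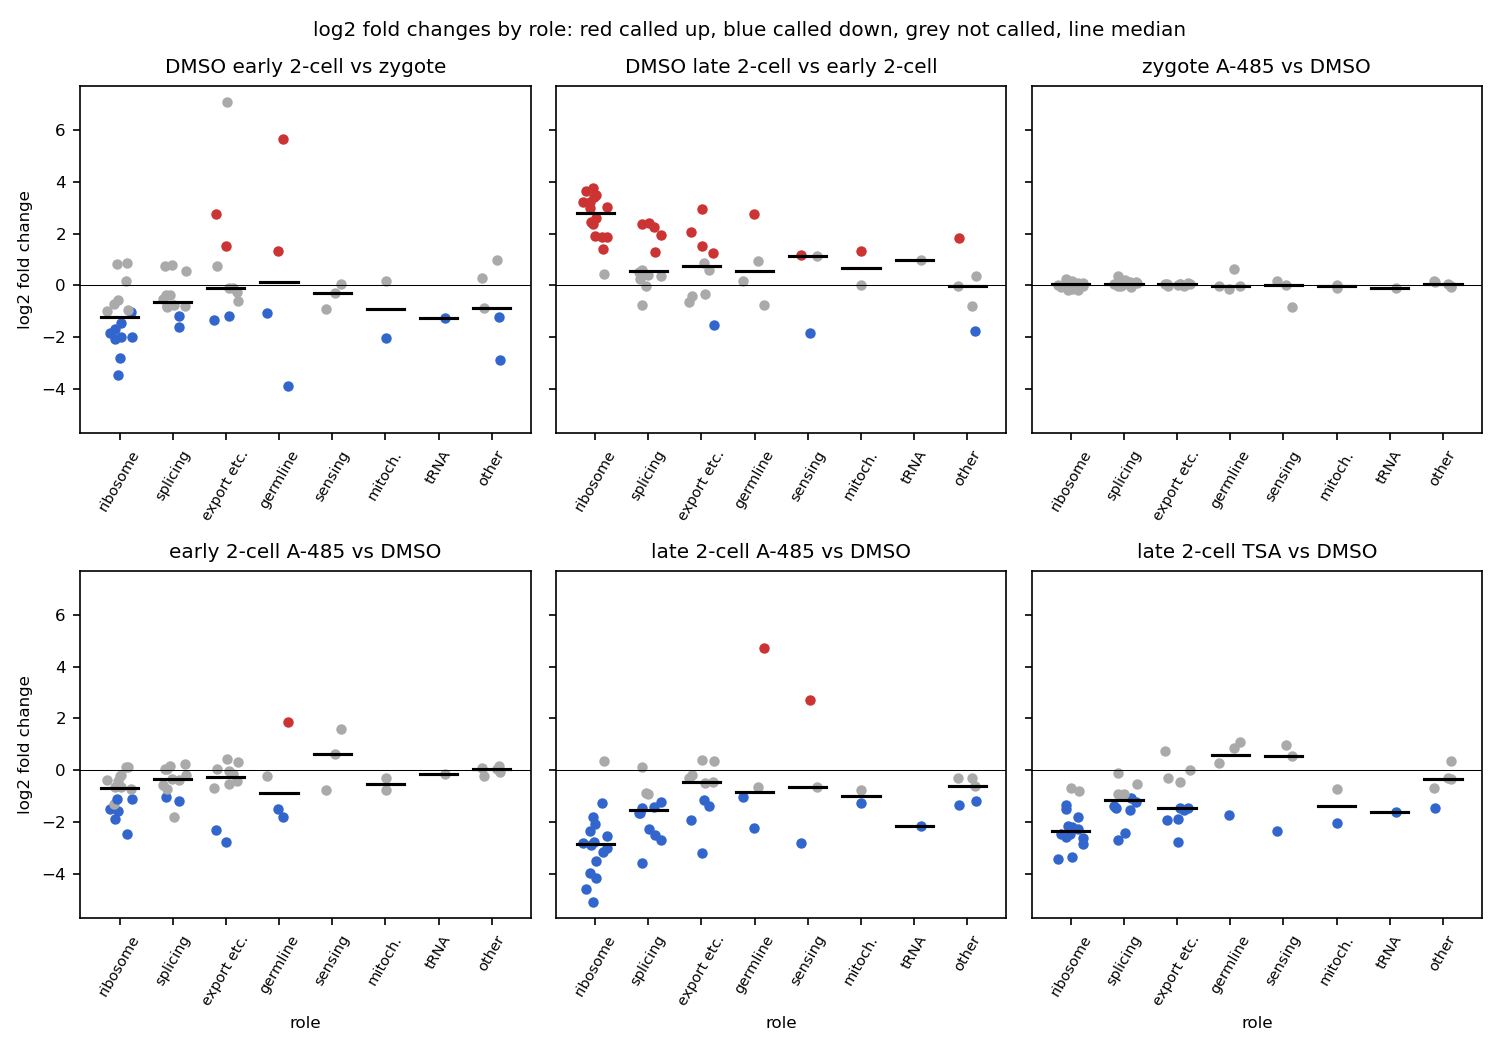
Log2 fold changes of the members (points) by role in 6 comparisons, with the median of each role as a line; red points were called higher, blue lower and grey neither. Ribosome biogenesis medians run from 2.81 in the DMSO late against early comparison to -2.86 with A-485 and -2.37 with TSA at the late 2-cell stage, and lie at 0.05 in A-485 zygotes.

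The change of the A-485 effect between the early and late 2-cell stage was tested directly as an interaction over 8 libraries. It differed for 25 members, of which 22 had a lower value at the late stage (background 7.38%) and 3 a higher one (background 7.6%), with a median of -0.97 for the members and 0.44 for all genes. Of genes with at least 1 FPKM, 11.1% had a lower and 11.4% a higher value, with a median of 0.22. Mitochondrial scaling shifted the median of all genes by -0.63 and gave 32 members lower and 2 higher, with higher calls at 24.1% of all genes called in place of 50.7%. Among the 22 were 12 ribosome biogenesis helicases, led by Ddx54 (-3.90 ± 0.238, adjusted p = 1.41e-11) and Ddx49 (-3.42 ± 0.562, adjusted p = 5.37e-05), and 5 were splicing helicases. The 3 with a higher late value were Ddx25 (2.94), Ddx58 (2.16) and Ddx43 (1.26). The result for Ddx43 was lost when any of 7 of the 8 libraries was left out, with values from 1.03 to 1.32, and it was 0.62 under mitochondrial scaling. Calls were also lost for Ddx55 (-1.50 to -2.37 in 4 fits) and Ddx60 (-1.31 to -1.93 in 3 fits) when single libraries were left out. For Ddx39 and Dhx9, whose effects at both stages are given above, no difference between stages was called.

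TSA was applied over a later window and compared with its own DMSO set. In late 2-cell embryos 32 of 53 members were lower (background 13.9%) and 0 were higher (edgeR; background 13.8%), with a median of -1.45 against 0.13 for all genes. Of genes with at least 1 FPKM, 20.2% were lower and 20.2% higher, with a median of -0.03. At an unadjusted p under 0.05, 4 members were higher, and DESeq2 called 0 higher. Scaling to total counts shifted the median of all genes by 0.36 and gave 29 members lower and 2 higher. Higher genes then made up 63.3% of all genes called in place of 49.9%.

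With TSA, 14 of 16 ribosome biogenesis helicases fell, with a median of -2.37, and Ddx24 (-0.70) and Ddx50 (-0.81) passed the p threshold without reaching 2-fold. Ddx47, of small subunit RNA processing, had 43.8 and 37.9 FPKM with DMSO and 4.63 and 5.15 with TSA (-3.44 ± 0.144, adjusted p = 2.37e-08). Ddx21 had 55.6 and 55.1 FPKM with DMSO and 10.9 and 9.05 with TSA (-2.87 ± 0.105, adjusted p = 1.05e-08). No treated library overlapped with a control library for either gene. Other large falls in the group were those of Ddx49 (-3.35), Ddx18 (-2.61), Ddx56 (-2.59), Ddx27 (-2.48), Ddx52 (-2.47) and Ddx55 (-2.46). Dhx8 again led the splicing helicases, with 78.7 and 80.0 FPKM with DMSO and 15.8 and 15.1 with TSA (-2.71 ± 0.076, adjusted p = 3.01e-09), and 7 of 12 in that group fell.

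Ddx3y, at 2.21 and 0.87 FPKM with DMSO and 0.26 and 0.29 with TSA, was called lower (-2.77 ± 0.483, adjusted p = 0.000819). This gene is Y-linked and the labels do not give the sex of the embryos, whose part in any Ddx3y difference was not tested. In the same group of export, translation and decay, Dhx9 fell from 119 and 116 to 36.8 and 44.7 FPKM (-1.94 ± 0.073) and Ddx39 from 145 and 157 to 51.7 and 49.9 FPKM (-1.88 ± 0.084). Ddx39b (-2.44 ± 0.244), Dhx36 (-1.53 ± 0.114), Ddx6 (-1.45 ± 0.111), Dhx15 (-1.46 ± 0.095) and Ddx5 (-1.38 ± 0.063) were lower as well. Ddx3x was 0.31 lower on the log2 scale (-0.31 ± 0.045, adjusted p = 0.00022) although its FPKM, 382 and 399 with DMSO and 390 and 414 with TSA, overlapped. Ddx19a was at 0.0 ± 0.077.

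The members above 0 with TSA were few. Ddx43 had 9.88 and 11.2 FPKM (537 and 568 counts) with DMSO and 24.7 and 24.6 FPKM (948 and 988 counts) with TSA (0.87 ± 0.131, adjusted p = 0.000283), the largest FPKM of this gene in any group but under 2-fold in counts. Ddx58 had 2.30 and 1.49 against 4.88 and 3.52 FPKM (0.97 ± 0.243, adjusted p = 0.00783). Ddx11 was at 0.37 ± 0.125 (adjusted p = 0.0359) and Ddx25, at 37 and 25 against 55 and 70 counts, at 1.08 ± 0.43 (adjusted p = 0.0668). Ddx4 was not called (0.27 ± 0.126, adjusted p = 0.109).

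The late 2-cell DMSO sets of the 2 experiments were compared as a measure of the difference between experiments without an inhibitor at that stage. No member was called between them (edgeR; background 0.136% higher and 1.19% lower in the A-485 set), 8 of 53 reached an unadjusted p under 0.05, 2 of them higher, and DESeq2 called 0. Member values ranged from -0.60 (Ddx3y) to 0.63 (Dhx58), and Ddx47 (-0.58 ± 0.128, adjusted p = 0.0332) was under the p threshold.

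The effects of TSA and A-485, each against its own DMSO set, were then tested against each other at the late 2-cell stage. They differed for 16 members, 12 with a higher value for TSA (background 10.8%) and 4 with a lower one (background 2.7%). Of genes with at least 1 FPKM, 15.7% had a higher and 3.93% a lower value. Mitochondrial scaling shifted the median of all genes by 0.50 and gave 19 higher and 2 lower, with higher calls at 92.0% of all genes called in place of 80.0%. Among ribosome biogenesis helicases, Ddx54 fell less with TSA (to 15.7 and 16.2 FPKM) than with A-485 (difference of log2 effects 3.06), as did Dhx37 (2.74), Ddx27 (2.22), Ddx24 (1.49), Ddx31 (1.46) and Ddx51 (1.46). Ddx43 (1.64), Ddx41 (1.61), Ddx42 (1.54), Ddx39 (1.42) and Ddx4 (1.41) also had higher values with TSA, and so had Ddx11 (1.67). Lower with TSA than with A-485 were Ddx25 (-3.53), Ddx3y (-3.06), Ddx58 (-1.64) and Ddx50 (-1.05).

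The differences for Ddx31, Ddx3y and Ddx50 depended on a library. For Ddx31 the difference was lost in 7 of 8 leave-one-out fits, with values between 0.81 and 1.55 on the log2 scale. For Ddx3y it was lost without the first DMSO library of the TSA set (-2.40, adjusted p = 0.0906). For Ddx50 it was just under 2-fold without the first A-485 (-0.94) or the first TSA library (-0.97), and was -0.55 under mitochondrial scaling, where Ddx58 was at -1.13 (adjusted p = 0.0727). For 37 members no difference between the inhibitors was called, Dhx9 (-1.93 with A-485 and -1.94 with TSA) and Ddx5 (-1.64 and -1.38) among them. A missed call does not show that the effects were equal.

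**Figure D4:**
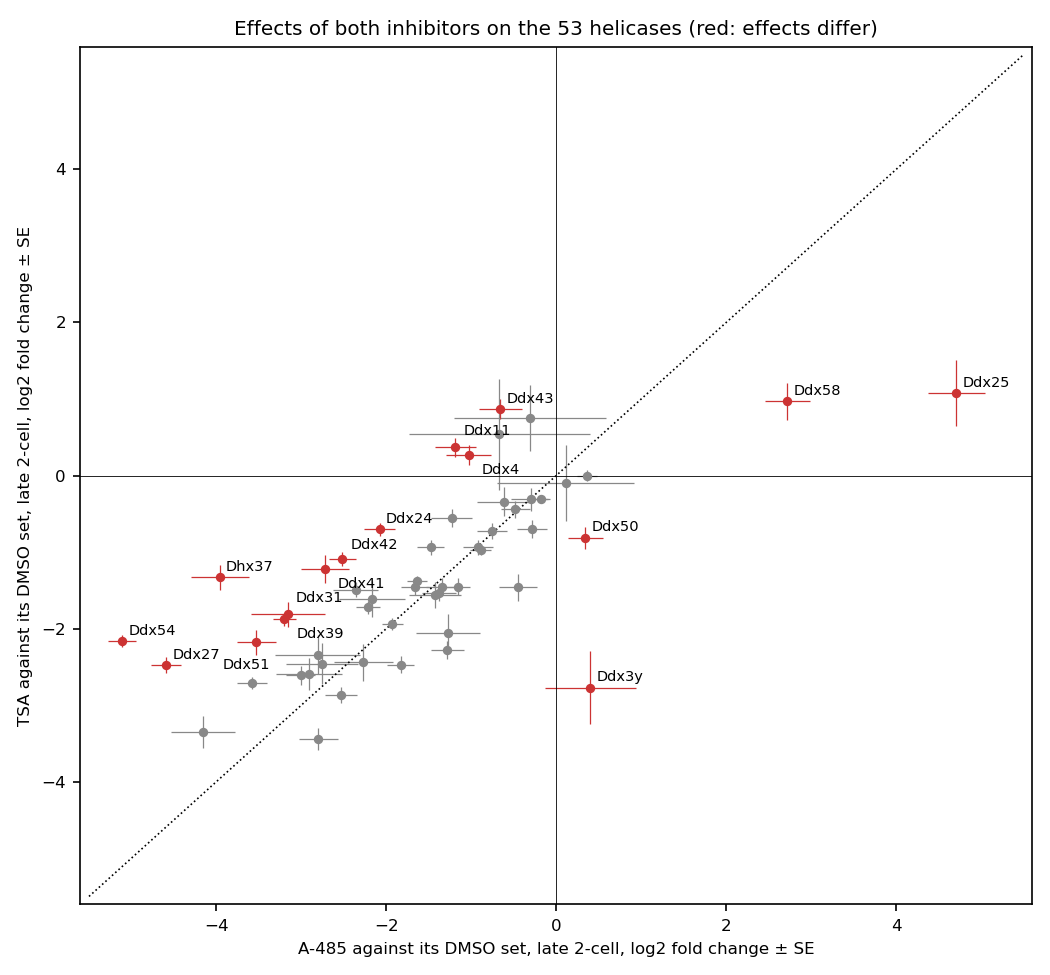
Log2 fold change ± SE of each helicase with A-485 (x axis) and with TSA (y axis) in late 2-cell embryos, each against its own DMSO set; the dotted line marks equal effects and red, labelled points are the 16 members whose effects differed. Ddx54, Ddx27 and Dhx37 lie above the line among the lower values, and Ddx25 and Ddx58 below it on the right.

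Chromatin at the start sites was described with the peak lists, which the authors had made from both ATAC-seq libraries of a condition, so that no test between conditions was possible. A peak lay within 1 kb of a start site of 24 of 53 members (45.3%, 95% Wilson interval 32.7 to 58.5) in late 1-cell DMSO embryos, against 26.2% of protein-coding genes. The corresponding values were 30 members (56.6% against 24.7%) in late 1-cell A-485 embryos, 35 (66.0% against 31.8%) in early 2-cell DMSO embryos and 42 (79.2% against 41.0%) in early 2-cell A-485 embryos. The lists held 10214, 7094, 27693 and 13712 peaks, in this order. The median number of start sites per gene was 4.0 for members and 3.0 for protein-coding genes, which gives members more windows in which a peak could lie. The protein-coding genes were not limited to those with RNA in these embryos, and the part of RNA level in the higher share of members was not tested.

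A peak was present in all 4 lists for 20 members, including Ddx54, Ddx39, Ddx5, Dhx8, Dhx15, Ddx18 and Ddx20, and in no list for 7, namely Ddx19a, Ddx3y, Ddx49, Ddx55, Ddx58, Ddx60 and Dhx58. The 20 had a median log2 fold change of -2.29 with A-485 at the late 2-cell stage (range -5.11 to 0.11) and the 7 of -0.67 (range -4.16 to 2.72). With TSA these medians were -1.46 and -2.34. Genes with a listed peak throughout, such as Ddx54 and Ddx39, and genes with none, such as Ddx49 and Ddx55, were both among those that fell with each inhibitor. Of the others with none, Ddx60 (-2.81) and Dhx58 (-0.67) were below 0 with A-485, and Ddx58 (2.72), Ddx3y (0.40) and Ddx19a (0.36) above. Ddx49, Ddx55, Ddx60, Dhx58 and Ddx3y had under 30 counts in at least 1 library. The part of open start sites in these changes was not tested.

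At the early 2-cell stage 10 members had a peak with A-485 alone and 3 with DMSO alone. The share of all protein-coding genes with a peak was also higher with A-485 (41.0% against 31.8%). Ddx27, Ddx51 and Ddx43 were those with DMSO alone. The peak at Ddx51 (fold enrichment 5.69) and that at Ddx43 (8.46) covered all 250 bases printed above. The peak counted for Ddx27 (5.26) lay within 1 kb of one of its start sites but covered none of the printed window. At Ddx54 all 4 lists had a peak over the whole printed window, with a fold enrichment of 9.13 and 5.81 in late 1-cell DMSO and A-485 embryos and of 6.56 and 5.88 in early 2-cell DMSO and A-485 embryos. Fold enrichment is the peak caller's value for a pooled sample and has no replicate error here.

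**Figure D5:**
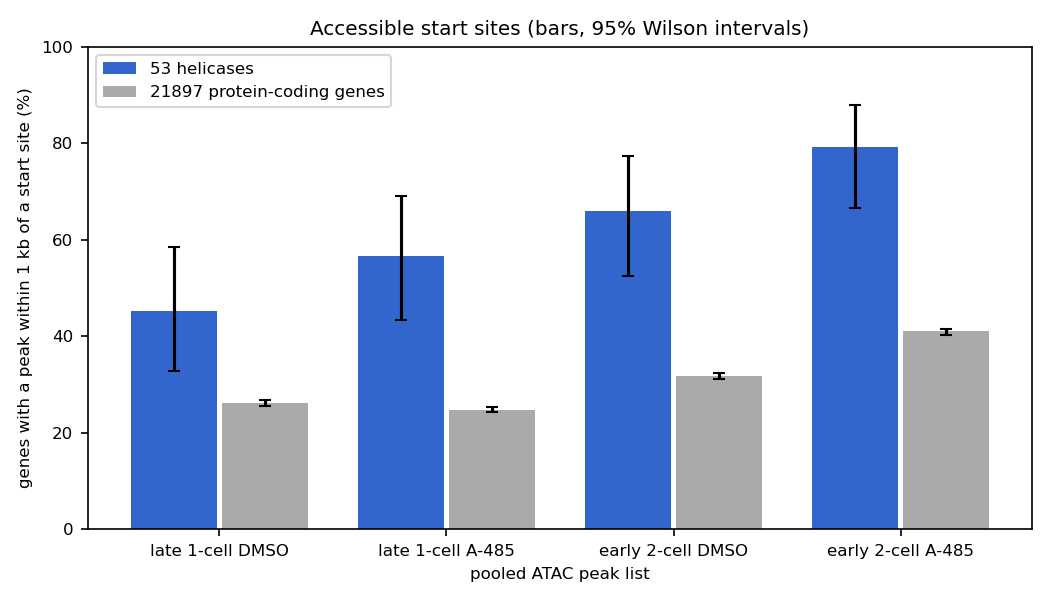
Percent of the 53 helicases (blue) and of 21897 protein-coding genes (grey) with a listed ATAC peak within 1 kb of a start site in 4 pooled peak lists (x axis); bars start at 0 and error bars are 95% Wilson intervals over genes. The helicase bars rise from 45.3% to 79.2% and stand above the grey bars in each list. The genes of the grey bars were not limited to those with RNA in these embryos.

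Other RNA helicases and known partners were examined beside the members. Of 24 other RNA helicases, 22 were tested in the late 2-cell A-485 comparison, where 8 fell and 0 rose (median -0.79), and 23 with TSA, where 9 fell and 0 rose (median -0.38). Over all genes tested, 16.8% fell and 10.5% rose with A-485, and 13.9% fell and 13.8% rose with TSA. Of 34 cofactors that bind or activate these helicases, 18 fell and 0 rose with A-485 (median -1.29), and 17 fell and 1 rose with TSA (median -0.80). Among these other helicases and cofactors, the largest changes included that of Nop53, a ribosome assembly factor. It was at 37.3 FPKM with DMSO and 3.60 with A-485 (-4.42 ± 0.233). The exon junction complex proteins Casc3 (-4.32), Eif4a3 (-3.71) and Magoh (-3.23) were also among them. Eif4a3 is itself a DEAD box helicase, which the rule on symbols leaves out. With TSA, Nop53 was at -3.18, Casc3 at -2.84 and the export adaptor Alyref at -2.29. In DMSO embryos between the early and late 2-cell stage, 15 of 34 cofactors rose (background 19.3%) and 4 fell (background 10.3%), with a median of 0.79 and with Casc3 (4.31) and Nop53 (3.52) among those that rose.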

How the data were processed

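Total RNA-seq libraries of mouse embryos (16, as 8 groups of 2) and 4 pooled ATAC-seq peak lists were used, and 8 H3K27ac CUT&RUN samples were not used here. The authors trimmed reads with Trimmomatic 0.39, aligned them with STAR 2.7.8a and estimated, per gene, the deposited expected counts and FPKM with RSEM 1.3.1 (versions from the submitters' processing notes; annotation GENCODE M21). The authors gave each deposited ATAC peak a fold enrichment with the ENCODE ATAC-seq pipeline, over both replicates of a condition. Depth was 13206163 to 32585987 expected counts per library, and counting error is therefore large for members with few counts.

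Here, expected counts were rounded and tested with edgeR 4.0.16 (R 4.3.3; TMM, quasi-likelihood) over the 4 libraries of a comparison or the 8 of an interaction, for genes whose summed count there was 10 or more. P-values were adjusted over all genes by Benjamini-Hochberg. The SE is the size of the log2 fold change divided by the square root of F. The test was tested on simulated data. Tables and plots used Python 3.11.15, pandas 2.3.3, numpy 2.4.6, scipy 1.17.1 and matplotlib 3.10.9.

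Alternatives were DESeq2 1.42.0, scaling to total or to mitochondrially encoded counts, no low-count filter, no FPKM limit, all 16 libraries in 1 fit, the replicate number as a block, each library left out, and for ATAC windows of 0.5 and 2.5 kb and a fold enrichment of at least 5. The rule for the members uses gene symbols alone, but this gene family and the gene lists were chosen with earlier results of these data known. Called members were named, but only the 10 with the largest log2 fold change where more than 15 were called in a direction. The 10 members of highest mean FPKM, members failing the low-count filter, the member with the largest change in each role, and Ddx1, Ddx3x, Ddx3y, Ddx4, Ddx6, Ddx21, Ddx39b, Ddx43, Ddx58, Dhx9, Dhx15 and Dhx36 were named as well, and other members after their values were seen. Upstream sequences come from RefSeq (GRCm38.p6), in which 47 of 53 members were matched.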

Additional observations from a re-analysis of the deposited data

Results flagged for a closer look

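Several helicases responded to A-485 by different amounts at the early and the late 2-cell stage, by the edgeR interaction test over 8 libraries. The difference of log2 effects (late minus early) was negative for the ribosome biogenesis helicases Ddx54 (-3.90), Ddx49 (-3.42), Ddx51 (-3.27), Ddx27 (-2.98), Dhx37 (-2.57), Ddx47 (-2.34), Ddx55 (-2.27), Ddx18 (-1.83), Ddx24 (-1.78), Ddx21 (-1.72), Ddx10 (-1.62) and Dhx33 (-1.34). It was negative for the splicing helicases Ddx41 (-2.88), Dhx8 (-2.45), Dhx15 (-1.61), Dhx38 (-1.43) and Ddx42 (-1.23), and for Ddx1 (-1.96), Ddx60 (-1.95), Dhx36 (-1.15), Dhx40 (-1.05) and Ddx11 (-1.04). It was positive for Ddx25 (2.94), Ddx58 (2.16) and Ddx43 (1.26). When single libraries were left out, the calls of Ddx11 (-0.86 to -1.01), Dhx36 (-0.93 and -1.0) and Dhx40 (-0.94 to -0.97) were lost in some fits, besides those of Ddx43, Ddx55 and Ddx60.

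The TSA and A-485 effects in late 2-cell embryos differed as well, each taken against its own DMSO set. The difference of log2 effects (TSA minus A-485) was positive for Ddx54 (3.06), Dhx37 (2.74), Ddx27 (2.22), Ddx11 (1.67), Ddx43 (1.64), Ddx41 (1.61), Ddx42 (1.54), Ddx24 (1.49), Ddx31 (1.46), Ddx51 (1.46), Ddx39 (1.42) and Ddx4 (1.41). It was negative for Ddx25 (-3.53), Ddx3y (-3.06), Ddx58 (-1.64) and Ddx50 (-1.05). For Ddx25 both effects were above 0, whereas for Ddx3y the A-485 effect was 0.40 and the TSA effect -2.77.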

How the results depend on the processing

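Of 5684 values recomputed under the alternatives, of single members or medians over members, 5458 kept their verdict, 78 lost a call and 120 gained one. A further 26 were medians that moved, and 2 member values reversed. Direction was not compared for members called in neither fit. The reversals were Dhx30 (-1.09) and Dhx33 (-1.08), early 2-cell against zygote, under mitochondrial scaling, where 2 members were called up and 39 down. With TSA 2 members were called up when libraries were scaled to total counts and 2 when all 16 libraries were fitted together. Leaving out 1 library gave 0 to 1, the 1 arising without the first DMSO or without the second TSA library. The other member counts from leaving out 1 library were 9 to 13 lower for early A-485, 34 to 35 lower for late A-485, 32 to 33 lower for TSA, 27 to 28 higher for late against early DMSO, 22 to 29 for the stage interaction and 14 to 19 for the inhibitor interaction. Same-numbered libraries did not deviate together (correlations -0.03 to 0.08), so the numbers pair nothing, and the replicate block gave 13 members lower for early A-485, 35 for late A-485, 32 for TSA, 19 for early 2-cell against zygote and 28 higher for late against early. ATAC counts stayed within 1.5 times under the other windows and the stricter peak limit. The causes were not tested. Depth limits the 13 members with under 30 counts in at least 1 library: Ddx25, Ddx31, Ddx39b, Ddx3y, Ddx43, Ddx49, Ddx55, Ddx56, Ddx60, Dhx34, Dhx35, Dhx37 and Dhx58.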
